A study of Mus musculus with 13 samples.

Results

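The genes described here are 10 genes of the Notch pathway, chosen by name, with earlier results of these libraries known. They are the receptors Notch1, Notch2, Notch3 and Notch4, the ligand Jag1, the transcription factor Rbpj, and the target genes Hes1, Hey1, Heyl and Nrarp. All 10 were among the 23211 genes of the count matrix. RNA was measured in 13 libraries of cells isolated by flow cytometry from tissue around implants placed in the tibia of mice: 6 libraries came from bone around implants named Pressfit, and 7 from fibrous tissue around implants named PMMA. Every library was titled LepR+, for the leptin receptor, a surface marker of bone marrow stromal cells, and the series title gives the cells of both groups as negative for lineage markers. The strain, genotype, age and sex of the mice, the time after implantation and any pooling of animals are not stated in the labels. Nor is it stated that each library is a separate mouse, so a p-value here reflects only how far libraries of a group lie apart, and that spread may be technical.

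Notch receptors are single-pass membrane proteins that bind ligands of the Jagged and Delta families on neighbouring cells. Ligand binding leads to cleavage of the receptor by ADAM proteases and then by gamma-secretase, and the released intracellular domain enters the nucleus and forms an activating complex with the DNA-binding protein RBPJ and a Mastermind coactivator. Genes of the Hes and Hey families, which encode transcriptional repressors, and Nrarp, a feedback inhibitor, are commonly used readouts of the pathway. In bone marrow, Notch signalling in skeletal progenitors is known for restraining osteoblast differentiation, and NOTCH3 and HEYL are known from the mural cells that wrap small vessels.

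Library names fell into a series ending in L002, with 9 libraries (bone 1 to 4, fibrous 1 to 5), and a series starting with XY9274, with 4 libraries (bone 5, bone 6, fibrous 6, fibrous 7). Within L002, 3 names held the token Lin (bone 3, bone 4, fibrous 5), 5 held the token plus (bone 1, bone 2, fibrous 2, fibrous 3, fibrous 4), and 1 held neither (fibrous 1); the labels do not say what the tokens mean. Library totals ran from 16162321 to 44302166 counts, with 14644 to 20146 genes detected, and counts are given below as counts-per-million values (CPM) after scaling by trimmed means of M values. Lepr itself, the gene of the sorted marker, was at 0.469 to 2.42 CPM in bone 3, bone 4, bone 5, fibrous 1 and fibrous 5, which include all the Lin-named libraries. It was at 46.7 to 804 CPM in the other 8 libraries. Those 5 libraries therefore go against the LepR+ label at the RNA level, and the fibrous against bone differences of all 10 genes are given with and without them.

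RBPJ recognises a short sequence with the core TGGGAA, and its own gene and 2 genes at other steps of the pathway are shown to let the window before a start site be read directly. The sequences are the 250 bases before the annotated start of transcription of Notch3 (chr17:32166891-32167140, minus strand), Nrarp (chr2:25180508-25180757, plus strand) and Rbpj (chr5:53590096-53590345, plus strand), from RefSeq on GRCm38.p6. They are written 5′ to 3′ in lower case, with TGGGAA or its reverse complement TTCCCA in capitals.
Notch3: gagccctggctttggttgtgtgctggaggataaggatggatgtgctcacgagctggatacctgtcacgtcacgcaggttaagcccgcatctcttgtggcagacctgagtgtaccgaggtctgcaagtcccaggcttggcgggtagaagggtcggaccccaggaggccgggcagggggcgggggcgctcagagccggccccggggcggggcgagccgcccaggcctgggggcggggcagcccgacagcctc
Nrarp: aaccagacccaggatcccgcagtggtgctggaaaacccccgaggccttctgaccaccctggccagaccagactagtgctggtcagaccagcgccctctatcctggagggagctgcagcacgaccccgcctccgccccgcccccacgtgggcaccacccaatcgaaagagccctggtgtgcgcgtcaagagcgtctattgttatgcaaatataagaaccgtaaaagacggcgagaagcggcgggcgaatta
Rbpj: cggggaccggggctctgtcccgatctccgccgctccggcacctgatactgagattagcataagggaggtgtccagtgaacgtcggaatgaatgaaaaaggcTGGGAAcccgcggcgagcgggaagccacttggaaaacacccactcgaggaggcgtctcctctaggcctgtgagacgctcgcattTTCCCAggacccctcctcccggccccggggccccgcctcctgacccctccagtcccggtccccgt
The Rbpj window held the core on each strand, 149 bases and 65 bases before the start, and the Notch3 and Nrarp windows did not hold it. Windows were found for 7 of the 10 genes, 8 windows in all; Hes1, Hey1 and Heyl had no entry. Over the window and the 50 bases after the start, TGGGAA on either strand was present in 25.6% of all 32851 RefSeq windows, and among the 8 windows only the overlapping pair at Rbpj held it. The longer GTGGGAA, which contains the core, was present in 6.38% of all windows and in 0 of the 8. A match describes the letters of a window and is not a binding site shown in these cells.

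Levels can be set between genes only per length, so CPM were divided by the summed exon length of each gene in kilobases. Hes1, which encodes a basic helix-loop-helix repressor and is a direct Notch target in many tissues, had the highest of these levels, with 7.91 ± 5.17 CPM per kb (SD, n = 13 libraries). Heyl followed with 2.89 ± 3.40 CPM per kb, Notch2 with 1.55 ± 2.11 CPM per kb and Hey1 with 1.34 ± 1.52 CPM per kb. Rbpj was at 0.781 ± 0.483 CPM per kb, Notch1 at 0.632 ± 1.36 CPM per kb, Notch3 at 0.561 ± 0.627 CPM per kb and Nrarp at 0.343 ± 0.182 CPM per kb. Jag1, at 0.165 ± 0.227 CPM per kb, and Notch4, at 0.0906 ± 0.162 CPM per kb, were lowest. In this order, each gene's mean differed from the next by less than the larger of the 2 SDs. Hes1 was the highest of the 10 genes in 9 libraries, and Heyl and Notch2 in 2 libraries each.

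The leading receptor was not the same in all libraries. Per length, Notch2 was the highest receptor in 7 libraries, among them all 4 of the XY9274 series, where it lay between 2.39 and 6.94 CPM per kb. Notch3 was the highest in bone 2, fibrous 2, fibrous 3 and fibrous 4, all plus-named, at 0.236 to 1.43 CPM per kb. In bone 1 the highest was Notch1, at only 0.0360 CPM per kb, and in bone 3 no count of any of the 4 receptors was recorded, where 3 counts would be 0.193 CPM. The stacked levels of the receptors show these differences.

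**Figure D1:**
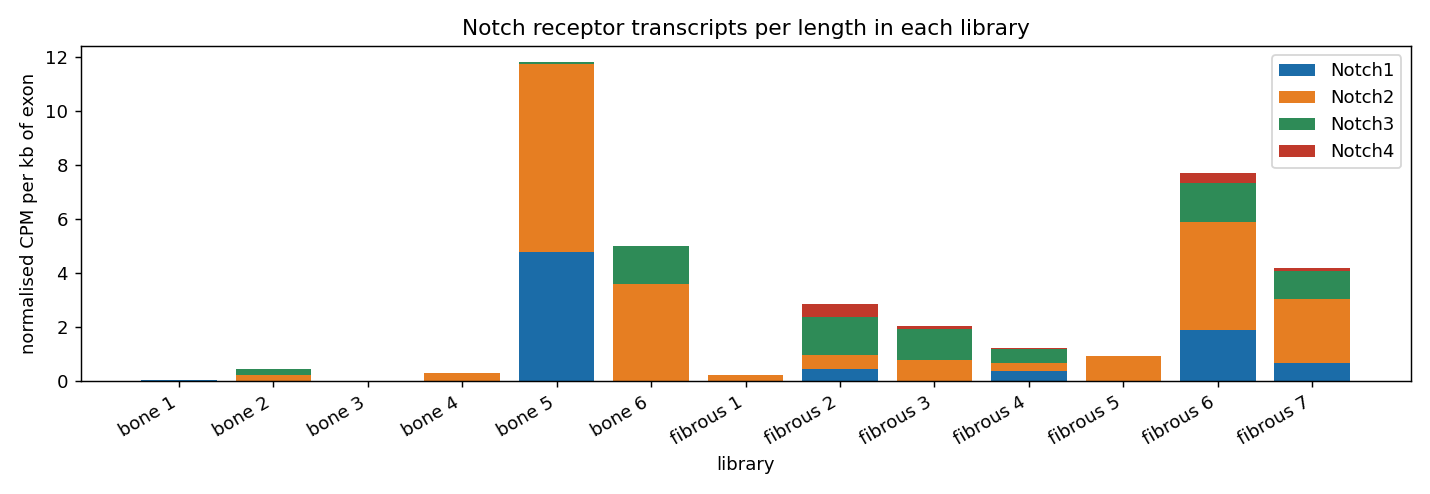
Normalised CPM per kb of exon (vertical axis) of Notch1, Notch2, Notch3 and Notch4, stacked for each of the 13 libraries (horizontal axis). Notch2 was the highest receptor in bone 5, bone 6, fibrous 6 and fibrous 7, Notch3 in bone 2 and fibrous 2 to 4, and the bar of bone 3 is at 0.

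The study's question is how LepR+ cells of fibrous tissue around an implant differ from those of bone around an implant. None of the Notch genes passed the test between fibrous and bone libraries, and by edgeR no other gene did, with 636 of 13294 genes at an unadjusted p under 0.05 (DESeq2 called 169 genes, none of them a Notch gene). Fitted levels of the 9 tested Notch genes were above those of bone, with Notch3, Notch1 and Heyl furthest apart, but none of these differences passed the test against the spread between libraries. The direction for Notch1 and Notch2 turned with the treatment of the name series. Notch4 counts came almost wholly from 5 fibrous libraries. In bulk libraries, fewer cells of a type and less RNA per cell cannot be told apart.

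Jag1 (ENSMUSG00000027276, chromosome 2, 137081456 to 137116644, minus strand, mm10), a membrane ligand, was low, at no more than 4.25 CPM in any library. It was at 0.0394, 0.497, 0.0644, 0, 2.89 and 1.38 CPM in bone 1 to 6 and at 0.0781, 1.05, 0.331, 0.122, 0, 4.25 and 1.79 CPM in fibrous 1 to 7. The 4 highest values were those of the XY9274 libraries, and the tissues overlapped. The mean was 0.812 ± 1.15 CPM (SD, n = 6) in bone and 1.09 ± 1.54 CPM (SD, n = 7) in fibrous tissue, a fitted log2 fold change of 0.84 (SE 1.01, edgeR adjusted p = 0.922).

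Notch1 (ENSMUSG00000026923, chromosome 2, 26457903 to 26516663, minus strand) was at 0.512, 0, 0, 0.100, 68.3 and 0 CPM in bone 1 to 6 and at 0.0781, 6.38, 0, 5.24, 0, 27.0 and 9.32 CPM in fibrous 1 to 7. A single bone library, bone 5, held nearly all Notch1 counts of bone, while 4 fibrous libraries lay above 5 CPM. The mean was 11.5 ± 27.8 CPM in bone and 6.87 ± 9.63 CPM in fibrous tissue, whereas the medians were 0.0502 and 5.24 CPM. The fitted log2 fold change, fibrous minus bone with the name series as a covariate, was 2.49 (SE 2.29, edgeR adjusted p = 0.891). It was -0.74 without the covariate for name series and -0.99 within the XY9274 libraries, so its direction depends on how the name series are treated.

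Notch2 (ENSMUSG00000027878, chromosome 3, 98013527 to 98150361, plus strand) was at 0.197, 2.40, 0, 3.31, 74.8 and 38.9 CPM in bone 1 to 6. It was at 2.34, 5.45, 8.27, 3.33, 10.03, 42.9 and 25.8 CPM in fibrous 1 to 7. The XY9274 libraries of both tissues were the 4 highest, and within each name series the tissues overlapped. The fitted log2 fold change was 1.18 (SE 0.97, edgeR adjusted p = 0.881), with 1.97 within L002, -0.80 within XY9274 and -0.51 without the covariate.

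Notch3 (ENSMUSG00000038146, chromosome 17, 32120820 to 32166852, minus strand), whose promoter window is shown above, was at 0, 1.91, 0, 0, 0.536 and 11.3 CPM in bone 1 to 6 and at 0.0781, 11.6, 9.33, 4.06, 0.123, 11.7 and 8.38 CPM in fibrous 1 to 7. Of the fibrous libraries, 5 lay above 4 CPM, and bone 6 was the only bone library that did. Its mean was 2.28 ± 4.46 CPM (SD, n = 6) in bone and 6.47 ± 5.04 CPM (SD, n = 7) in fibrous tissue. The fitted log2 fold change of 2.58 was the highest among the tested Notch genes (SE 1.69, edgeR adjusted p = 0.873).

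Notch4 (ENSMUSG00000015468, chromosome 17, 34564268 to 34588503, plus strand), a receptor known from endothelial cells, had 8 counts over all bone libraries, all in bone 5. It had 375 counts over the fibrous libraries: 127 in fibrous 2, 24 in fibrous 3, 12 in fibrous 4, 167 in fibrous 6 and 45 in fibrous 7, and 0 in fibrous 1 and fibrous 5. In CPM these were 3.94, 0.882, 0.487, 3.17 and 0.846, each above the 0.171 of bone 5. Notch4 did not pass the filter on low counts, and in a fit of all 23211 genes without that filter its log2 fold change was 6.17 (SE 1.89, edgeR adjusted p = 0.650). Of the endothelial markers, Cdh5 had no count in 10 of the 13 libraries and reached at most 0.602 CPM, Emcn had none in 8, and Tie1 and Esam had none in 7 each. Egfl7 was present in every library, at 5.51 to 26.0 CPM, and Kdr reached 3.82 CPM in bone 6. Pecam1 was highest in bone 5, fibrous 6 and fibrous 7, at 43.1, 34.1 and 12.03 CPM. Notch4 was at 0.171, 3.17 and 0.846 CPM there. In fibrous 2, the library highest in Notch4, Pecam1 was at 0.341 CPM, and in fibrous 3 and fibrous 4 at 0.478 and 0.244 CPM. The part of endothelial markers in the Notch4 difference was not tested. The summed level of the 7 endothelial markers measured, of 8 listed, ran from 8.28 to 60.5 CPM in bone and from 5.94 to 47.4 CPM in fibrous libraries.

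Rbpj (ENSMUSG00000039191, chromosome 5, 53466152 to 53657362, plus strand), the DNA-binding partner of all the receptors, was present in every library. It was at 11.1, 5.22, 2.58, 5.32, 25.2 and 7.44 CPM in bone 1 to 6 and at 8.51, 12.95, 8.56, 9.25, 2.95, 15.5 and 14.8 CPM in fibrous 1 to 7. The highest value was in bone 5 and the lowest in 2 Lin-named libraries, 1 of each tissue. The means were 9.48 ± 8.21 CPM (SD, n = 6) and 10.4 ± 4.40 CPM (SD, n = 7), with the smallest fitted log2 fold change among the tested Notch genes, 0.30 (SE 0.49, edgeR adjusted p = 0.933).

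Hes1 (ENSMUSG00000022528, chromosome 16, 30064384 to 30067796, plus strand) was at 27.6, 11.8, 11.8, 0.702, 12.2 and 3.98 CPM in bone 1 to 6 and at 17.3, 35.8, 26.2, 8.28, 6.83, 26.2 and 20.7 CPM in fibrous 1 to 7. It was detected in every library, and 5 of 7 fibrous libraries but 1 of 6 bone libraries lay above 15 CPM. The means were 11.3 ± 9.32 CPM (SD, n = 6) in bone and 20.2 ± 10.4 CPM (SD, n = 7) in fibrous tissue, a fitted log2 fold change of 0.84 (SE 0.67, edgeR adjusted p = 0.877).

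Hey1 (ENSMUSG00000040289, chromosome 3, 8663359 to 8667256, minus strand), a Hairy-related repressor, was at 5.64, 6.67, 0.129, 0.100, 0 and 3.27 CPM in bone 1 to 6 and at 4.06, 18.2, 8.86, 3.45, 0, 2.98 and 3.63 CPM in fibrous 1 to 7. It was at or near 0 in all 3 Lin-named libraries and in bone 5, and at 2.98 CPM or more in the other 9. Its fitted log2 fold change between tissues was 1.10 (SE 1.39, edgeR adjusted p = 0.922).

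Heyl (ENSMUSG00000032744, chromosome 4, 123233556 to 123249875, plus strand), a repressor of the same family, was at 7.10, 13.1, 0.129, 5.42, 0.922 and 9.61 CPM in bone 1 to 6 and at 0, 60.4, 35.4, 22.2, 0, 22.1 and 15.5 CPM in fibrous 1 to 7. The fibrous libraries split: 5 lay above every bone library, and fibrous 1 and fibrous 5 had no count. The mean was 6.05 ± 5.01 CPM (SD, n = 6) in bone and 22.2 ± 21.1 CPM (SD, n = 7) in fibrous tissue, and the fitted log2 fold change was 1.86 (SE 1.40, edgeR adjusted p = 0.873).

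Nrarp (ENSMUSG00000078202, chromosome 2, 25180758 to 25183339, plus strand), whose product limits Notch signalling by acting on the intracellular domain, stayed low. Its values were 0.670, 0.0829, 1.10, 0, 1.33 and 1.01 CPM in bone 1 to 6 and 0.781, 0.806, 1.03, 1.79, 0.923, 1.14 and 0.865 CPM in fibrous 1 to 7. The means were 0.698 ± 0.551 CPM (SD, n = 6) and 1.05 ± 0.349 CPM (SD, n = 7), with a fitted log2 fold change of 0.74 (SE 0.81, edgeR adjusted p = 0.911). The plot of levels by library shows the overlap of the tissues for each gene and the position of the Lin-named and XY9274 libraries within each tissue.

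**Figure D2:**
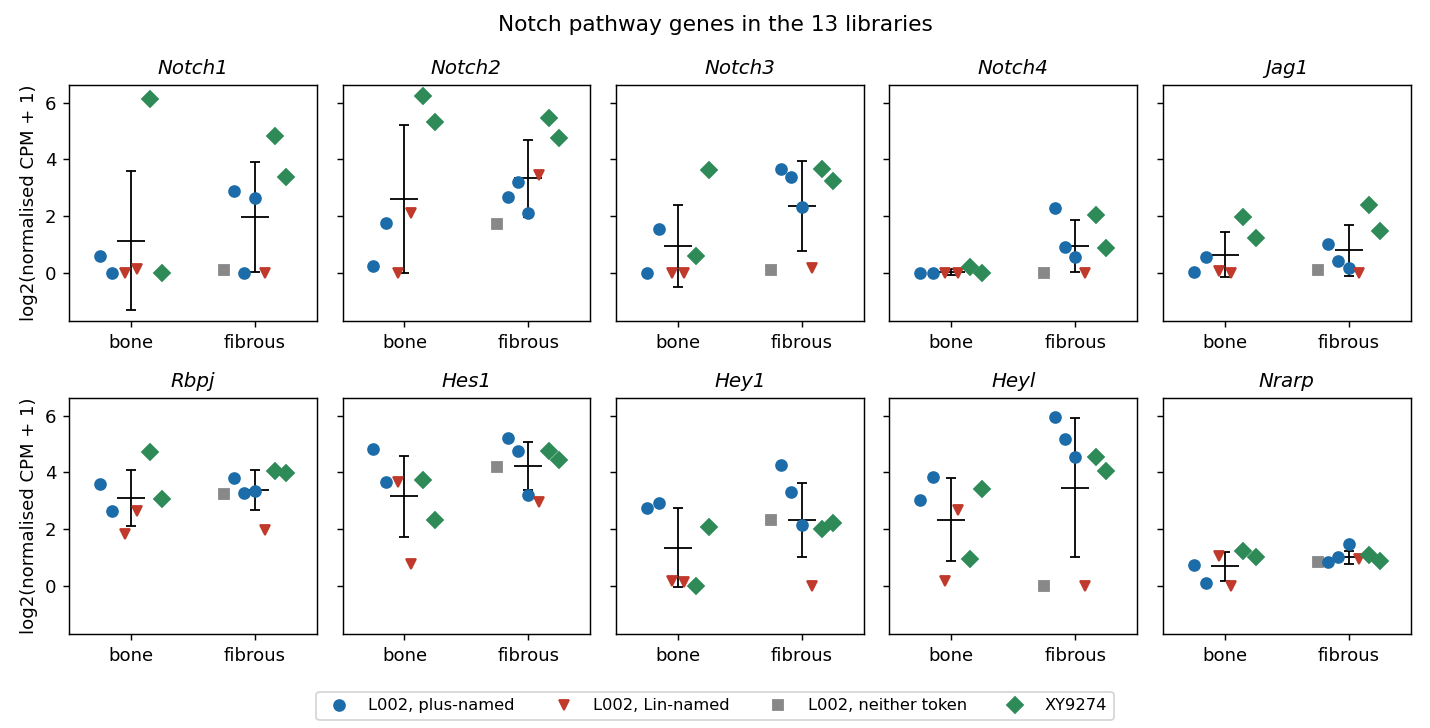
Level of each of the 10 genes as log2(normalised CPM + 1) (vertical axis) in the 6 bone and 7 fibrous libraries (horizontal axis), 1 symbol per library by name series and token; bars give the mean and SD. Heyl in fibrous tissue spans from 0 to 60.4 CPM, and Notch2 and Jag1 are highest in the 4 XY9274 libraries.

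Of the 10 genes, 9 passed the filter on low counts in the comparison of fibrous with bone libraries, and 0 of the 9 were called at an adjusted p under 0.05, against 0% of the 13294 genes tested. At an unadjusted p under 0.05, 0 of the 9 were past the threshold in edgeR, where 4.78% of all tested genes were, and DESeq2 and limma-voom also called 0 of them. All 9 fitted log2 fold changes were above 0, although those of Notch1 and Notch2 were below 0 without the covariate for name series. The median of the 9 was 1.10, beside 0.03 for all tested genes, of which 51.9% were above 0. For no Notch gene did every fibrous library lie above every bone library, as it did for 0.0527% of tested genes, or every one below, as for 0.015%. Sums of marker lists also differed in their medians between the tissues, with ranges that overlapped for each list given here. The 8 mural markers summed to 0.322 to 68.4 CPM in bone and 12.004 to 221 CPM in fibrous libraries, mostly from Cspg4 and Acta2, with no count of Myh11 in 9 libraries and of Rgs5 in 8. The median sum of stromal markers was 9718 CPM in bone and 26393 CPM in fibrous libraries, and that of osteoblast markers 579 and 2960 CPM. Neutrophil markers had medians of 29686 and 7218 CPM, and B and plasma cell markers 646 and 64.6 CPM. The part of these lists in the differences was not tested. The term for a different tissue effect in the 2 name series called 0 Notch genes, against 0% of all tested genes, and at an unadjusted p under 0.05 it found 0 of the 9 and 2.2% of all tested genes.

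Without the 5 libraries low in Lepr, 3 bone and 5 fibrous libraries remained, a choice made with the Lepr levels in view. No gene was called among the 14635 tested, with 913 at an unadjusted p under 0.05. Heyl was then at 7.10, 13.1 and 9.61 CPM in bone and at 15.5 to 60.4 CPM in fibrous libraries, with a log2 fold change of 1.62 (SE 0.47, edgeR adjusted p = 0.757). The tissues did not overlap for Heyl or Notch4 among these 8 libraries, as for 2.69% of the 14635 tested genes with fibrous above bone and 1.4% with fibrous below; fibrous 1 and fibrous 5, both at 0 for Heyl and Notch4, are among the libraries left out. Notch4 had no count in the 3 bone libraries and 12 to 167 counts in each of the 5 fibrous libraries (edgeR adjusted p = 0.692). It passed the filter on low counts here only through the fibrous libraries, and bone 5, with 8 counts, was among those left out. Its test and its lack of overlap could therefore only point to fibrous tissue. Notch1 moved to a log2 fold change of 5.05 (SE 2.58, edgeR adjusted p = 0.798); bone 5, the library with its highest level, was among those left out. For the other Notch genes the log2 fold change without these libraries was 1.80 for Notch3, 1.23 for Notch2, 1.04 for Jag1, 1.00 for Nrarp, 0.95 for Hes1, 0.58 for Rbpj and 0.49 for Hey1, each with an edgeR adjusted p of 0.890 or more. Heyl and Notch3 are set against Lepr, library by library, in the plot of Notch genes against the receptor gene. Among the 8 libraries with higher Lepr, the 3 highest in Heyl (fibrous 2, fibrous 3 and fibrous 4) were also the 3 highest in Lepr, at 804, 407 and 197 CPM. Fibrous 4 and fibrous 6 were almost level in Heyl, at 22.2 and 22.1 CPM. Bone 2 and bone 6 had less Heyl than fibrous 6 and fibrous 7 but more Lepr, at 143 and 102 CPM against 67.2 and 60.3 CPM. Hey1 was at 4.06 CPM in fibrous 1, where Lepr was at 0.469 CPM. All these points share the tissue and name series of their libraries.

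**Figure D3:**
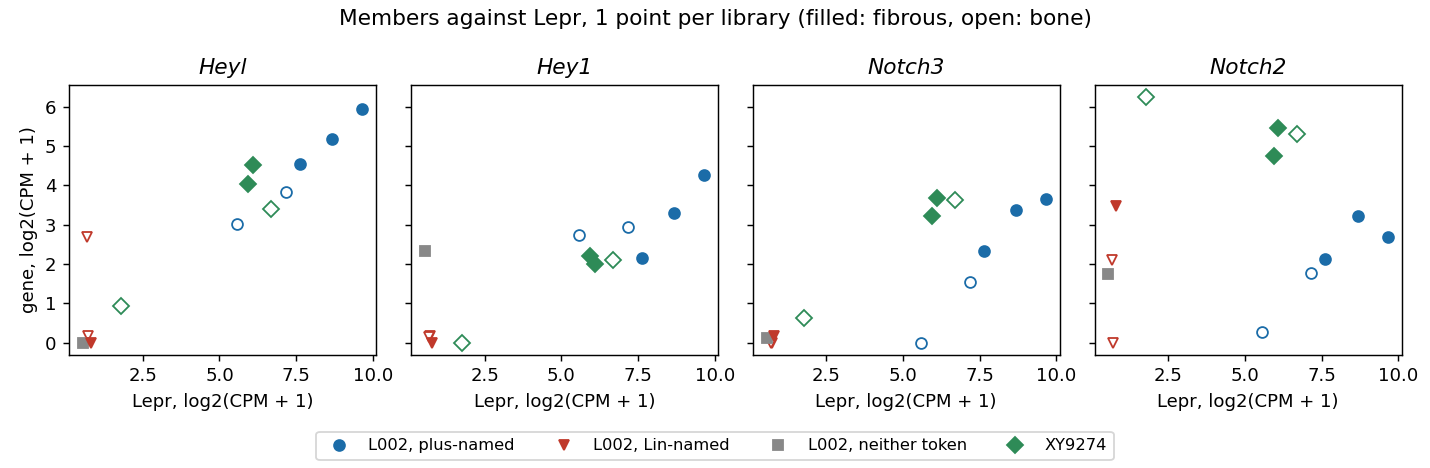
Level of Heyl, Hey1, Notch3 and Notch2 (vertical axis) against Lepr (horizontal axis), both as log2(normalised CPM + 1), 1 point per library with filled symbols for fibrous tissue and open symbols for bone. Lin-named libraries lie at the left with Hey1 at 0 to 0.129 CPM, and Notch2 reaches its highest level, 74.8 CPM, in bone 5, where Lepr was at 2.42 CPM.

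Within L002, the Lin-named libraries were compared with the plus-named ones, 3 against 5. By edgeR, Hey1 was called lower in the Lin-named libraries and was the only Notch gene called. DESeq2 also called Notch3 and Heyl, but it called 3456 of the 13450 tested genes, where edgeR called 1097. Notch1, Notch3 and Notch4 were close to 0 in the Lin-named libraries too but were not called by edgeR. Jag1 had too few counts to be tested. The values of the sets overlapped for every Notch gene except Hey1 and Heyl. Some plus-named libraries also had no count: bone 2 and fibrous 3 for Notch1, bone 1 for Notch3, and bone 1 and bone 2 for Notch4. Pooled counts show how the sets differed in total. Hey1 had 3 counts over the Lin-named and 1216 over the plus-named libraries, and its pooled CPM was 127-fold higher in the latter (95% interval 43.2 to 615, for counting error only). Notch3 had 2 and 773 counts, a ratio of 121 (33.3 to 999), and Notch1 had 1 and 348 counts, a ratio of 109 (19.4 to 4305). Jag1, with 1 and 59 counts, had a ratio of 18.4 (3.18 to 740), and Notch4, with 0 and 163 counts, was at least 17.0-fold higher in the plus-named libraries, taking 3 counts over the Lin-named group as the floor. The counting intervals and the floor do not include the spread between plus-named libraries. In these, Notch1 ran from 0 to 6.38 CPM, Notch3 from 0 to 11.6 CPM and Notch4 from 0 to 3.94 CPM. All 163 Notch4 counts were in fibrous 2, fibrous 3 and fibrous 4. The pooled ratios take no account of tissue.

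The fitted log2 fold change of Hey1, Lin-named minus plus-named, was -6.78 (SE 1.47, edgeR adjusted p = 0.0363), with 0, 0.100 and 0.129 CPM in the Lin-named and 3.45 to 18.2 CPM in the plus-named libraries. With 3 counts over the Lin-named libraries, Hey1 passed the filter on low counts only through the plus-named ones. The same holds for Notch1, Notch3 and Notch4, so a call of these genes could only be lower in the Lin-named libraries. Hey1 was 1 of 9 tested Notch genes, where 8.16% of the 13450 tested genes were called in either direction, 5% lower and 3.15% higher. The call of Hey1 was lost without any one of bone 1, bone 2, bone 3, bone 4, fibrous 2, fibrous 3 or fibrous 5, at adjusted p from 0.0551 to 0.103 in edgeR, and held without fibrous 4. Paired by the tokens that names share (bone 2 with bone 4, fibrous 2 with fibrous 5), the log2 fold change was -7.95 with a replicate block (edgeR adjusted p = 0.253). Hey1 and Heyl were lower in every Lin-named library than in any plus-named one, as were 13.3% of all tested genes. Heyl was at 0, 0.129 and 5.42 CPM in the Lin-named and at 7.10 to 60.4 CPM in the plus-named libraries, with a log2 fold change of -3.46 (SE 1.99, edgeR adjusted p = 0.305; DESeq2 adjusted p = 0.0490).

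Among the receptors the log2 fold change was -6.41 for Notch3 (SE 2.09, edgeR adjusted p = 0.101; DESeq2 adjusted p = 0.00640). It was -6.37 for Notch4 (SE 2.47, edgeR adjusted p = 0.188) and -4.32 for Notch1 (SE 3.14, edgeR adjusted p = 0.420). Notch2 was at 0, 3.31 and 10.03 CPM in the Lin-named and at 0.197 to 8.27 CPM in the plus-named libraries, with a log2 fold change of 0.53 (SE 1.45, edgeR adjusted p = 0.845) that ran from -0.66 to 1.79 with 1 library left out. Rbpj (-1.39, SE 0.72) and Hes1 (-1.74, SE 0.96) had smaller differences that did not pass the test, with edgeR adjusted p of 0.257 and 0.285. Of the 9 tested Notch genes, 7 were below 0 with a median of -3.46, beside a median of -0.21 for all tested genes, of which 43.4% were above 0. Other markers moved with the same split. Erythroid markers made up 21.0% to 36.5% of the counts in Lin-named and 2.97% to 7.96% in plus-named libraries. Stromal markers summed to 848 to 6009 CPM in Lin-named and 24577 to 82697 CPM in plus-named libraries, and mural markers to 0.322 to 12.004 and 57.6 to 105 CPM. With the erythroid markers left out before scaling, Hey1 was still called (edgeR adjusted p = 0.0370). Leaving out these genes bears on the scaling only and does not change which cells a library holds. The part of the marker lists in these differences, the erythroid list included, was not tested.

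The XY9274 libraries, 2 of each tissue, had higher Notch2 and Jag1 than all 9 L002 libraries. Notch2 was at 25.8, 38.9, 42.9 and 74.8 CPM in XY9274 and at 0 to 10.03 CPM in L002, with means of 45.6 ± 20.8 CPM (SD, n = 4) and 3.93 ± 3.42 CPM (SD, n = 9). Jag1 was at 1.38, 1.79, 2.89 and 4.25 CPM in XY9274 and at 0 to 1.05 CPM in L002. For both genes the name series did not overlap, which was so, in this direction, for 5.05% of the 13294 tested genes. The log2 fold change, XY9274 minus L002 with tissue as a covariate, was 4.10 for Notch2 (SE 0.98, edgeR adjusted p = 0.0512) and 3.47 for Jag1 (SE 1.02, edgeR adjusted p = 0.0945). Notch1 was at 68.3, 27.0 and 9.32 CPM in 3 of the XY9274 libraries, above every L002 library, and at 0 CPM in bone 6, with a log2 fold change of 5.90 (SE 2.27, edgeR adjusted p = 0.157) that was 2.08 without bone 5. Marker lists differed between the name series as well: the median sum was 775 CPM in XY9274 and 263 CPM in L002 for pan-leukocyte markers, 17334 and 7218 CPM for neutrophil markers, and 37.6 and 12.9 CPM for endothelial markers, with overlapping ranges. Endothelial markers did not move together. Pecam1 was at 43.1, 34.1 and 12.03 CPM in bone 5, fibrous 6 and fibrous 7 but at 0.0918 CPM in bone 6. Egfl7 was at 9.63 to 15.2 CPM in XY9274 and 5.51 to 26.0 CPM in L002, and Cdh5 at no more than 0.602 CPM in any library. Bone 5, the library highest in Notch1 and Notch2, stood apart in leukocyte and neutrophil markers: Ptprc was at 441 CPM there and at most at 149 CPM elsewhere, and neutrophil markers made up 9.63% of its counts and at most 3.803% elsewhere. The part of these markers in the Notch differences was not tested.

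By edgeR 0 of the 9 tested Notch genes passed the threshold between the name series, where 2.16% of all tested genes did (1.89% higher and 0.271% lower in XY9274), and 4 of the 9 had an unadjusted p under 0.05, where 22.4% of all tested genes did. DESeq2 called Notch1 (adjusted p = 0.0210), Notch2 (adjusted p = 2.29e-04) and Jag1 (adjusted p = 0.0206), and limma-voom called the same 3 genes (adjusted p = 0.0399, 0.00729 and 0.00513). Of the 13294 tested genes, DESeq2 called 1982 and limma-voom 2946, where edgeR called 287. The 3 Notch calls are to be read beside those larger numbers, not beside the edgeR share. Notch2 was also called in edgeR without the filter on low counts (adjusted p = 0.0475) and with a stricter filter (adjusted p = 0.0491). Of the target genes, Nrarp had a log2 fold change of 0.65 (SE 0.84), Hes1 -0.14 (SE 0.72), Heyl -0.31 (SE 1.46) and Hey1 -1.005 (SE 1.55), while limma-voom gave 0.45 for Hes1 and 0.76 for Heyl; differences between genes were not tested. Notch3 was at 2.46 (SE 1.65, edgeR adjusted p = 0.396) and Rbpj at 1.14 (SE 0.51, edgeR adjusted p = 0.212). The plot of fitted differences sets the 3 comparisons side by side. They share libraries, so their values are given next to each other without a test between them.

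**Figure D4:**
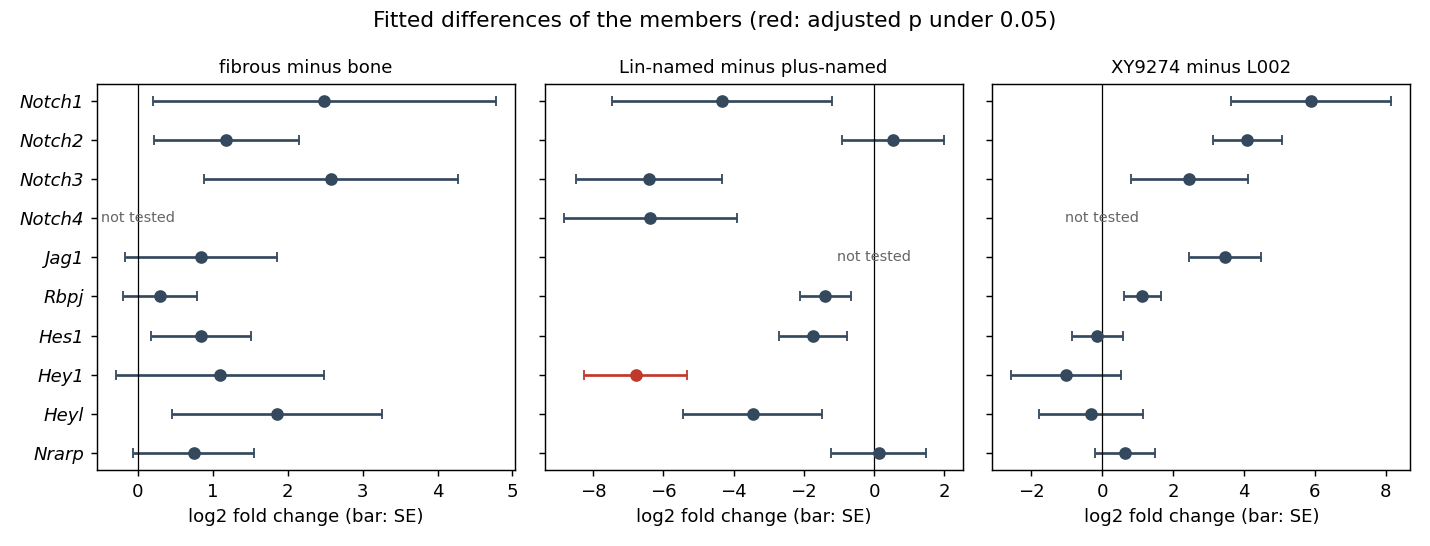
Fitted log2 fold change (horizontal axis) of each gene in fibrous against bone, Lin-named against plus-named, and XY9274 against L002 libraries; points are estimates and bars 1 SE either side. Hey1 at -6.78 in the Lin-named comparison, in red, is the only estimate with an edgeR adjusted p under 0.05.

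Receptor transcripts are long, and gene length moved with the same comparisons over all genes. Among the genes tested between the name series, the median log2 fold change was -0.53 for genes with up to 2 kb of exon, -0.18 from 2 to 4 kb, 0.33 from 4 to 8 kb and 0.80 above 8 kb. The share called higher in XY9274 was 0.232%, 0.565%, 2.51% and 4.93% in the same classes. Notch1 (14232 bases of exon), Rbpj (12750), Notch2 (10782), Notch3 (8089) and Notch4 (8061) fall in the longest class, Jag1 (5827) and Heyl (5113) in the next, and Hey1 (3265), Nrarp (2582) and Hes1 (2037) in the class from 2 to 4 kb. In the Lin-named comparison the medians were 0.51, -0.09, -0.44 and -0.93 from the shortest class to the longest, and between fibrous and bone they were -0.30, -0.01, 0.13 and 0.25. Notch2 and Notch1 lay above the median of their length class between the name series, and Hey1 lay far below that of its class in the Lin-named comparison. The part of length in these differences was not tested.

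**Figure D5:**
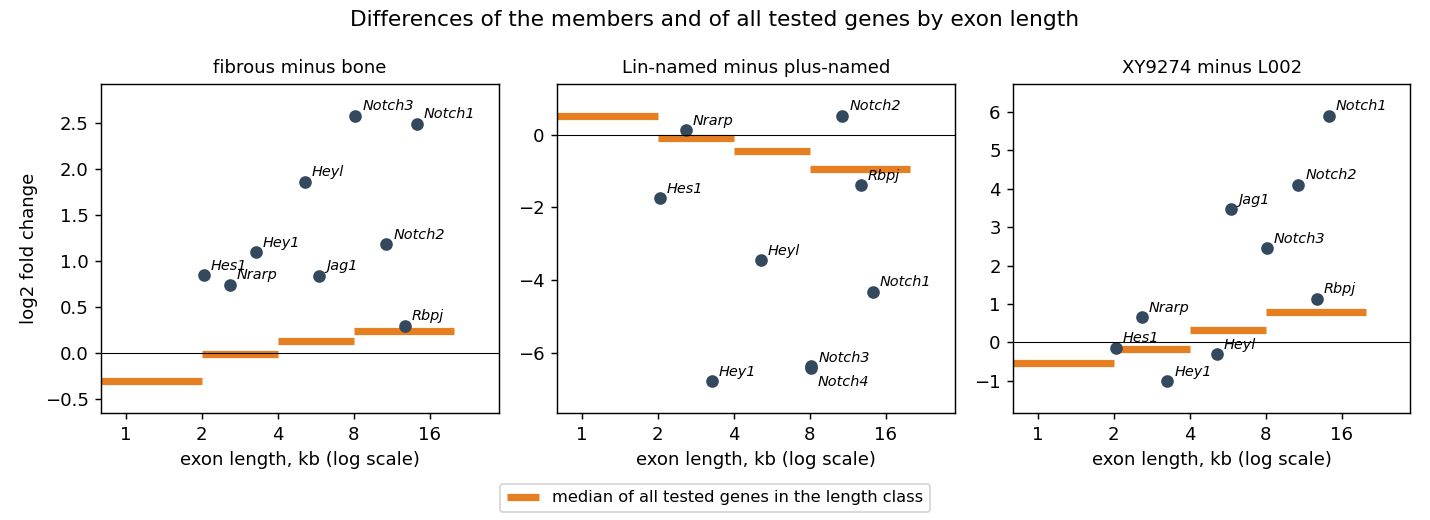
Fitted log2 fold change (vertical axis) against summed exon length in kb on a log scale (horizontal axis) for the tested Notch genes in each of the 3 comparisons; orange bars give the median of all tested genes in each length class. Between the name series the class medians run from -0.53 to 0.80, and Notch1, Notch2 and Jag1 lie above theirs.

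Other genes of the pathway were taken from a list of 53, of which 48 were in the matrix; Dll3, Dll4, Hes2, Hes3 and Hes7 are not analysed here. Of the 5 other ligands measured, none passed the filter on low counts: Jag2 reached at most 1.37 CPM, Dll1 3.16 CPM, Dlk1 3.07 CPM, Dner 3.36 CPM and Dlk2 11.04 CPM in any library. Between fibrous and bone libraries, 0 of the 40 tested were called, 27 were above 0, and the median log2 fold change was 0.22. The smallest unadjusted p belonged to Psenen, a subunit of gamma-secretase, with a log2 fold change of -0.56 (SE 0.22, edgeR adjusted p = 0.873). In the other roles the smallest p was that of Dtx3l, a ubiquitin ligase of the Deltex family (2.92, SE 1.60), Maml2, a Mastermind coactivator (-3.07, SE 1.72), Neurl1a, a ubiquitin ligase for Notch ligands (1.60, SE 1.23), Pofut1, which adds O-fucose to the receptors (0.34, SE 0.31), and Hes6 (-0.36, SE 0.41). Within XY9274 the sign of Dtx3l, Maml2, Pofut1 and Hes6 was the opposite.

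In the Lin-named comparison 4 of 39 tested genes of this list were called, all lower in the Lin-named libraries, 28 were below 0, and the median was -0.88; of all tested genes 8.16% were called, 5% lower, with a median of -0.21. Dtx4, another Deltex ubiquitin ligase, had 0 counts in the Lin-named and 1596 in the plus-named libraries, at 5.29 to 25.3 CPM, and was at least 166-fold higher in the latter (edgeR adjusted p = 0.0183). Maml2 had 1 and 449 counts, a ratio of 140.2 (95% interval 25.04 to 5551, edgeR adjusted p = 0.0342), mostly from bone 1 at 12.2 CPM and bone 2 at 4.64 CPM. Dtx4 and Maml2 passed the filter on low counts only through the plus-named libraries, so their calls could only be lower in the Lin-named ones. Poglut1, which adds O-glucose to the receptors, differed by -1.83 on the log2 scale (SE 0.38, edgeR adjusted p = 0.0330), and Ncor1, a corepressor, by -1.91 (SE 0.43, edgeR adjusted p = 0.0387). Each of these calls was lost without at least 1 of the libraries; for Dtx4 that was fibrous 3 only (edgeR adjusted p = 0.0537). No one of the 4 was called with the replicate block (edgeR adjusted p from 0.198 to 0.300), and Poglut1 and Ncor1 were not called by limma-voom. With the library of neither token added to the plus-named ones, all 4 and Hey1 were no longer called, at edgeR adjusted p from 0.0508 to 0.0810. Between the name series Adam10, the protease of the first ligand-induced cleavage, was called higher in XY9274, at 261 ± 59.6 CPM (SD, n = 4) against 70.1 ± 22.9 CPM (SD, n = 9) in L002, with a log2 fold change of 1.91 (SE 0.25, edgeR adjusted p = 0.00338). It was the only gene called among 40 tested, of which 32 were above 0 with a median of 0.73, where 2.16% of all tested genes were called, 52.2% were above 0 and the median was 0.05. Adam10 was called in every fit that left out a single library.

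The tested genes whose log2 CPM followed each Notch gene most closely over the 13 libraries were found by Pearson's r, given here as a description over libraries that share depth and name series. Rbpj was closest to Tut4, an RNA uridylyltransferase (r = 0.967), and Nrarp to Rnf31 (r = 0.966). Heyl was closest to Apbb2 (r = 0.966) and Fst, the activin-binding protein follistatin (r = 0.922), and Notch3 to Aoc3, an amine oxidase (r = 0.962), and Dlg5 (r = 0.961). Jag1 was closest to Acap2 (r = 0.949), Hey1 to Ripply3 (r = 0.948), Gnai1 (r = 0.947) and Mdk (r = 0.941), Notch2 to Ambra1 (r = 0.942), Hes1 to Sertad4 (r = 0.940), and Notch1 to D3Ertd751e (r = 0.921). No Notch gene was among the 3 closest of another.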

How the data were processed

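Whole-number counts per gene were deposited by the authors in one matrix; edgeR (version unstated) and both mm10 and hg38 appear in the submitters' processing notes, and the aligner, counting tool, annotation and strand setting were not given in the sources used here. Every one of the 23211 Ensembl IDs was matched to a symbol in GENCODE M21 (mm10), which also gave positions and exon lengths. Reads of Notch1, Notch2, Notch3 and Nrarp could in part belong to overlapping genes.

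Totals of 16162321 to 44302166 counts were scaled by TMM in edgeR 4.0.16 (R 4.3.3). Genes passing filterByExpr were fitted with the robust quasi-likelihood F test, Benjamini-Hochberg adjustment over all tested genes and a threshold of 0.05. Fibrous was compared with bone with the name series as covariate, the name series with tissue as covariate, and Lin-named with plus-named libraries within L002. SEs were derived from each estimate and its F statistic (estimate over root F), and log2 CPM used a prior count of 2. Alternatives used DESeq2 1.42.0, limma-voom 3.58.1, RLE factors, other filters, a replicate block and leaving out libraries. Leaving out the 5 libraries low in Lepr (under 5 CPM) was chosen after seeing the data. The fits were also run on simulated counts, with the same spread for every gene and no difference in composition between libraries. That setting is simpler than these libraries, so the run does not show how well the Notch genes were fitted.

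Named were all 10 Notch genes, genes from a list of the pathway that were called or had the smallest p of their role, and the genes of highest likeness without Gm or Rik names. The members and lists were chosen with earlier results of these data known. Intervals and floors (95% confidence, 3 counts) cover counting error only.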

Additional observations from a re-analysis of the deposited data

Results flagged for a closer look

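Within a tissue, 1 library stood apart from the others in 4 of the 20 sets of values (10 genes in 2 tissues) by Dixon's test. The test was run on log2(CPM + 1) at its 95% critical value, where chance gives about 1 in 20. Levels are given below in CPM, a scale on which the gaps differ. In bone, Notch1 in bone 5 was at 68.3 CPM, where the other bone libraries were at 0.512 CPM or less; bone 5 was also the library highest in Ptprc, at 441 CPM. In the same tissue, Notch4 in bone 5 was at 0.171 CPM, from 8 counts, where the others had no count; beside values that are all 0, any count stands apart, so this one carries no weight and the chance rate does not apply to it. In fibrous tissue, Nrarp in fibrous 4 was at 1.79 CPM, where the others were at 0.781 to 1.14 CPM. Rbpj in fibrous 5, a Lin-named library, was at 2.95 CPM, below the 8.51 to 15.5 CPM of the others.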

How the results depend on the processing

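Between fibrous and bone libraries, all 110 values of Notch genes with 1 library left out, and 80 of 86 under other settings, kept their direction and side of the threshold. Fits in which a gene did not pass the filter gave no value and are not counted. The smallest adjusted p of any gene by edgeR was 0.873, so staying on the same side of the threshold says little. Those that turned direction were Notch1 (-0.74) and Notch2 (-0.51) without the covariate for name series, and Notch1 (-0.99), Notch2 (-0.80), Nrarp (-0.29) and Rbpj (-0.18) within XY9274. There, Pofut1 was at -0.14, Dtx3l at -0.36, Maml2 at 0.90 and Hes6 at 0.47; Hes6 was also at 0.23 with limma-voom and 0.075 without the libraries low in Lepr. DESeq2 called 169 genes between tissues, against 0. The cause was not tested for any of these. In the Lin-named comparison, 55 of 65 values with 1 library left out and 61 of 67 others were kept. Genes called, 1097 in all, ranged from 138 to 992 with 1 library left out (368 without bone 1, 470 without bone 2, 144 without bone 3 or bone 4, 264 without fibrous 2, 138 without fibrous 3), and Notch genes called from 0 to 1. With 1 library left out, Hey1 ran from -7.41 to -5.67, Notch2 from -0.66 to 1.79 and Nrarp from -1.50 to 0.97. DESeq2 called 3456 genes and 3 Notch genes, limma-voom 629 genes, with Nrarp at -0.094, and adding the library of neither token gave 354 genes, 0 Notch genes and Hey1 at -6.69. The replicate block on the 2 token pairs called 15 genes and 0 Notch genes, with Hey1 at -7.95 and Nrarp at -0.77; the labels do not say that a shared token marks the same animal. No paired analysis was possible for fibrous against bone because replicate numbers were given in accession order. Between the name series, 103 of 110 values with 1 library left out and 33 of 43 others were kept. Genes called, 287 in all, ranged from 87 to 470 (470 without bone 1, 191 without bone 3, 179 without bone 4, 90 without bone 5, 184 without fibrous 2, 151 without fibrous 3, 87 without fibrous 6, 137 without fibrous 7), and Notch genes called from 0 to 1 (Notch2, without bone 1 or bone 3). With 1 library left out, Hes1 ran from -0.34 to 0.17 and Heyl from -0.95 to 0.058. DESeq2 called 1982 genes and 3 Notch genes; limma-voom called 2946 and 3, with Hes1 at 0.45 and Heyl at 0.76; no filter and the stricter filter each called 1 Notch gene. At depths of 16162321 counts and up, genes at 1 to 3 counts, such as Notch1, Notch3 and Jag1 over the Lin-named libraries, carry wide counting intervals.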
